A study of Mus musculus with 194 samples.

Results

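The Myc and Mxd network is a small family of transcription factors that compete for the same partner. It was followed here through 9 genes, Myc, Mycn, Max, Mxd1, Mxd3, Mxd4, Mxi1, Mnt and Mlx, taken by symbol from the 23420 gene rows of a single-cell RNA-seq table of mouse lymphocytes. All 9 symbols were present. The genes were selected on their levels by cell type, their course after division and their likeness within lineages in these same cells, so those values are given as a description with SDs, SEs and intervals, and no test was made on them.

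The cells were of 2 kinds. L1210 is an established mouse lymphocytic leukemia line (ATCC CCL-219, strain DBA subline 212) that was grown without further treatment. The CD8+ T-cells were primary spleen cells of C57BL/6J mice of both sexes and various ages, activated with plate-bound antibody against CD3 and soluble antibody against CD28 and then kept in IL2. Each founding cell divided for a pair of generations in a microfluidic trap array under time-lapse imaging, so that sisters, cousins and the time since each cell's last division were known before the cells were released and sequenced by Smart-Seq2, a full-length cDNA method. No mouse and no culture is named for any cell, L1210 is a single line, and a lineage, the progeny of 1 founder, served as the replicate. SDs, SEs and p-values therefore cover the spread between lineages and not that between mice or cultures.

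The series has 194 libraries, and 97 CD8+ T-cells with 81 L1210 cells were used. Doublets, 4 and 2, and poor libraries in which under 1000 genes were detected, 5 and 5, stayed out. The cells used had 2639 to 10905 detected genes in CD8+ T-cells (median 6862) and 1610 to 10454 in L1210 cells (median 8402). Values are TPM, transcript abundances scaled to a total of 1000000 per library, which correct for gene length but keep no sequencing depth, so the depth behind a single value is unknown. The ribosomal precursor Rn45s held a median of 22.6% and 21.9% of the TPM. All 6 CD8 T-cell markers present in the table had a median above 0 TPM in CD8+ T-cells, where their sum ranged from 394.69 to 5485.1 TPM. In L1210 cells that sum ranged from 0 to 75.58 TPM, and Cd3e and Cd3g were at 0 in every cell. The other 4 were above 0 in some L1210 cells, Cd8b1 in 23 of 81, Cd2 in 22, Cd8a in 10 and Cd3d in 8. The highest values of Cd8b1 and Cd2 there were 31.75 and 75.58 TPM. The 8 B-lineage markers used summed to between 389.69 and 4372.26 TPM in L1210 cells, with 6 of the 8 at a median above 0. Vpreb1 was above 0 in 78 of 81 cells, and Rag1 and Ms4a1, both with a median of 0 TPM, in 22 and 1. In CD8+ T-cells they summed to between 0 and 282.57 TPM, all of the upper end being Cd79b, while Pax5, Ebf1, Vpreb1, Igll1 and Rag1 were at 0 in every cell. Cd79b was above 0 in 47 of 97 CD8+ T-cells and Cd79a in 10. The 12 markers of other spleen cells had a median sum of 0 TPM in CD8+ T-cells against 1.28 TPM in L1210 cells. Among them Lyz2 was above 0 in 36 of 81 L1210 cells, up to 110.31 TPM, and in 0 of 97 CD8+ T-cells.

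As background, Myc and Mycn are activators of growth and proliferation genes that bind DNA only when paired with Max. Mxd1, Mxd3, Mxd4 and Mxi1 (also known as Mxd2) and Mnt pair with the same Max, occupy the same E-box sequence and recruit Sin3 and histone deacetylases, which repress transcription. Mlx is a Max-like partner of a parallel arm that binds Mxd1, Mxd4, Mnt and the glucose-responsive Mondo proteins. In lymphocytes Myc is induced by antigen receptor signalling and drives the growth that precedes division, Mxd1, Mxd4 and Mxi1 are linked with exit from the cell cycle and differentiation, and Mxd3 is the member known for expression in S phase of dividing cells.

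The sequence the network reads is the palindromic E-box CACGTG. The genes of the network themselves carried it in the RefSeq promoter windows (GRCm38.p6, 250 bases before to 50 bases after each start) for 4 of the 8 members with an entry, Mxd4, Mnt, Mlx and Max. Counted by window these were 4 of 10 (40%), against 7.15% of all 32851 windows of that length. Myc had no entry. No CACGTG stood in the windows of Mxd1, Mxd3, Mxi1 or Mycn. The 30 bases around each match, 5′ to 3′ on the strand of the gene and with the E-box in capitals, are shown because this is the motif the family is known to bind. A match is a description and not a measured site.
Mxd4, chr5:34187912-34187941, minus strand: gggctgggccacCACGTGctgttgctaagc
Mnt, chr11:74830789-74830818, plus strand: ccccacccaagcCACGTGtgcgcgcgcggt
Mlx, chr11:101087238-101087267, plus strand: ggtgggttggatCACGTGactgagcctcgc
Max, chr12:76962234-76962263, minus strand: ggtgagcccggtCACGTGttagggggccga
The first E-box base lay 219, 123, 40 and 3 bases before the start of Mxd4, Mnt, Mlx and Max, respectively.

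The activator Myc was higher in L1210 cells and the repressor Mxd3 was higher in CD8+ T-cells. Max, the shared partner, was detected in nearly every cell of both. Mycn was nearly absent. Of the other repressors, Mxi1 and Mnt were detected in a larger share of L1210 cells than of CD8+ T-cells, and Mxi1 had the widest gap in detection of all members.

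Myc (chromosome 15, 61985391 to 61990374, plus strand, GRCm38) was detected, that is above 0 TPM, in 87 of 97 CD8+ T-cells (89.7%, exact 95% binomial interval 81.9 to 94.9%) and in 80 of 81 L1210 cells (98.8%, 93.3 to 100%). These intervals cover counting error only. In CD8+ T-cells it ran from 0 to 533.03 TPM with quartiles of 30.91, 113.28 and 212.95 TPM. In L1210 cells it ran from 0 to 1029.96 TPM with quartiles of 141.64, 273.63 and 467.77 TPM. The ranges overlapped over most of their length, and the CD8+ T-cells had the longer lower tail. On the ln(TPM + 1) scale the mean was 4.15 ± 1.53 in CD8+ T-cells (SD over 34 lineages) and 5.37 ± 0.869 in L1210 cells (SD over 26 lineages), a difference of −1.22 with an SE of 0.313. Among cells with a similar number of detected genes, 6000 to 9000, the difference was smaller, −0.67, and under the size of 1 used further on to call a gene different.

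Mxd3 (chromosome 13, 55325168 to 55329823, minus strand), the repressor tied to proliferating cells, was detected in 67 of 97 CD8+ T-cells (69.1%, 58.9 to 78.1%) and in 33 of 81 L1210 cells (40.7%, 29.9 to 52.2%). Its median was 40.83 TPM in CD8+ T-cells, with an upper quartile of 117.48 and a maximum of 665.17 TPM. In L1210 cells its median was 0 TPM, with an upper quartile of 10.4 and a maximum of 70.52 TPM. Every CD8+ T-cell beyond its upper quartile thus lay above all L1210 cells. The mean of ln(TPM + 1) was 2.74 ± 1.77 against 1.25 ± 1.04, a difference of 1.49 with an SE of 0.365. The mean TPM was 79.7 in CD8+ T-cells against 8.04 in L1210 cells, a ratio of 9.90. Among cells with 6000 to 9000 detected genes the difference was 2.11.

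Max (chromosome 12, 76937269 to 76962201, minus strand), with which all of these factors except Mlx pair, was above 0 TPM in 94 CD8+ T-cells and 80 L1210 cells. Its median was 85.99 TPM in CD8+ T-cells, with a range of 0 to 240.71 TPM, and 55.89 TPM in L1210 cells, with a range of 0 to 387.86 TPM. The means of ln(TPM + 1), 4.17 ± 0.885 and 3.97 ± 0.337, differed by less than the SD over lineages of either cell type (difference 0.20, SE 0.166). Among cells with 6000 to 9000 detected genes that difference was larger, 0.66, about the size of that of Myc and of the opposite sign. Mlx (chromosome 11, 101087277 to 101092207, plus strand) had medians of 56.27 and 57.38 TPM and a difference of −0.35 with an SE of 0.290.

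The remaining repressors were sparse. Mxi1 (chromosome 19, 53310518 to 53375810, plus strand) was detected in 22 of 97 CD8+ T-cells (22.7%, 14.8 to 32.3%) and in 58 of 81 L1210 cells (71.6%, 60.5 to 81.1%), with medians of 0 and 3.07 TPM and a difference of −0.95 (SE 0.151). The size of that difference depended on the pseudocount, being −2.02 with 0.1 TPM added, where that of Mxd3 was 2.00 and that of Myc −1.44, and −0.25 with 10 TPM. Among cells with 6000 to 9000 detected genes it was −0.61. Mnt (chromosome 11, 74830920 to 74845725, plus strand), the repressor present in most dividing cells, was above 0 in 46 of 97 and 58 of 81 cells with a difference of −0.29 (SE 0.148). Mxd1 (chromosome 6, 86647042 to 86669161, minus strand) was above 0 in 35 of 97 and 24 of 81 cells with a difference of 0.39 (SE 0.168), and its highest values were 67.01 and 17.44 TPM. Mxd4 (chromosome 5, 34173883 to 34187720, minus strand) was above 0 in 11 of 97 and 5 of 81 cells, reaching 95.29 TPM in CD8+ T-cells against 7.84 TPM in L1210 cells. Mycn (chromosome 12, 12936093 to 12941914, minus strand), the Myc paralog of early development, was above 0 in 5 of 97 CD8+ T-cells, with a maximum of 10.52 TPM, and in 0 of 81 L1210 cells. The latter allows a share of up to 4.45% of cells with a detected transcript by the exact 95% interval. By the approximation of 3 over the number of cells it is 3.70%.

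**Figure D1:**
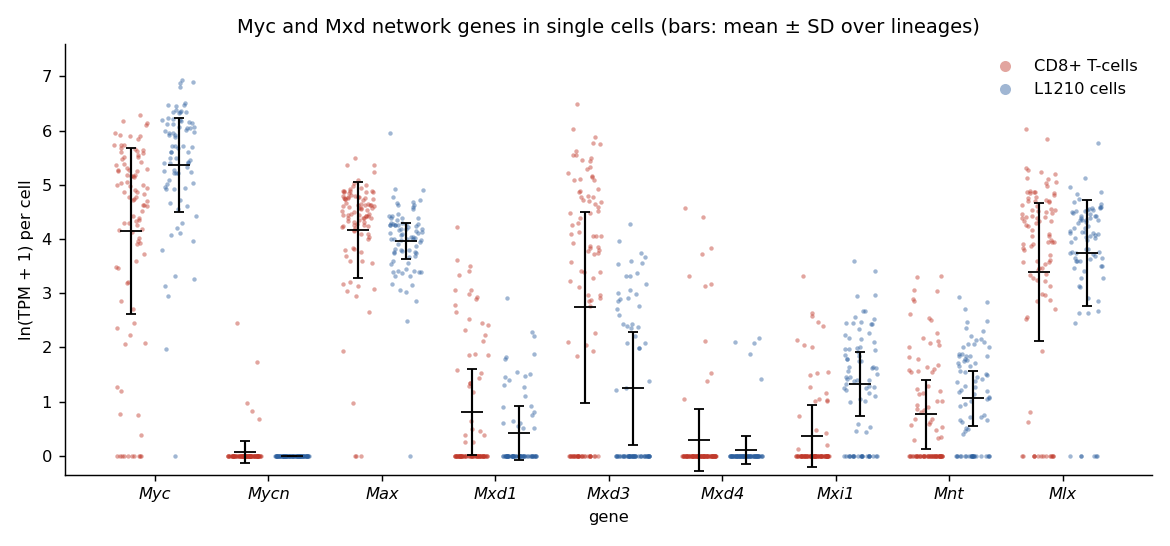
Expression of the 9 network genes in single cells. The horizontal axis gives the gene and the vertical axis ln(TPM + 1); each point is a cell (red, 97 CD8+ T-cells; blue, 81 L1210 cells), and the black bars are the mean and SD over lineages, 34 and 26. Myc is higher in L1210 cells (means 5.37 against 4.15), Mxd3 in CD8+ T-cells (2.74 against 1.25), and Mycn lies at 0 in nearly every cell.

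In CD8+ T-cells the order of the mean ln(TPM + 1) was Max 4.17, Myc 4.15, Mlx 3.39, Mxd3 2.74, Mxd1 0.81, Mnt 0.77, Mxi1 0.37, Mxd4 0.29 and Mycn 0.07. In L1210 cells it was Myc 5.37, Max 3.97, Mlx 3.74, Mxi1 1.32, Mxd3 1.25, Mnt 1.06, Mxd1 0.42, Mxd4 0.11 and Mycn 0. Each step between neighbours in these orders was smaller than the larger SD over lineages of the pair, except those from Mxd3 to Mxd1 in CD8+ T-cells and from Myc to Max, from Mlx to Mxi1 and from Mnt to Mxd1 in L1210 cells. A gene counted as different between cell types when its means differed by more than 1 on this scale. By that rule Mxd3 was higher in CD8+ T-cells, where 4.95% of the 11373 genes kept in either cell type were, and Myc was higher in L1210 cells, where 20.3% were (25.2% in either direction). Of the 8 members that passed the filter on low values in either cell type, the other 6 stayed within 1. The median difference of all genes kept was −0.41.

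Since all partners draw on the same Max, their TPM can be set side by side as a share of the sum of Myc, Mycn, Mxd1, Mxd3, Mxd4, Mxi1 and Mnt. In CD8+ T-cells Myc made up 60.4% of that sum and Mxd3 34.4%, and the other partners made up the small rest, Mxd1 1.83%, Mxd4 1.55%, Mnt 1.21%, Mxi1 0.53% and Mycn 0.085%. In L1210 cells Myc made up 94.8%, Mxd3 2.36%, Mxi1 1.41% and Mnt 0.98%. Mxd3 exceeded Myc in 30 of 97 CD8+ T-cells and in 1 of 81 L1210 cells. These are shares of transcripts and not of dimers.

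The second question was how the network moves through the interval after division, which the recorded times address directly. In CD8+ T-cells Myc was highest in the youngest cells and lower in older ones, while Mxd3 ran the other way. In L1210 cells neither gene had a slope of that size. Times were recorded for 94 CD8+ T-cells, from 0.5 to 9.475 h with a median of 4.41 h, and for all 81 L1210 cells, from 0.3544 to 12.8 h with a median of 4.45 h. Number of detected genes and time were nearly unrelated over cells (Spearman's rho −0.075 in 94 CD8+ T-cells against 0.091 in 81 L1210 cells). The 7 CD8+ T-cells at 8 to 10 h had from 2985 to 7171 detected genes, where the median of all CD8+ T-cells was 6862. Spearman's rho with detected genes was 0.403 for Myc and 0.018 for Mxd3 in 97 CD8+ T-cells, and 0.236 and 0.398 in 81 L1210 cells.

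Among the 15 CD8+ T-cells within 2 h of division, all 15 had Myc, from 7.08 to 533.03 TPM with a median of 247.78 TPM. The median was 78.685 TPM in the 26 cells at 2 to 4 h, 124.78 TPM in the 27 at 4 to 6 h and 108.86 TPM in the 19 at 6 to 8 h. Of the 7 cells at 8 to 10 h, from 2 lineages, only 3 had Myc above 0, with a maximum of 116.74 TPM. The corresponding means of ln(TPM + 1) over lineages were 5.42 ± 0.519 (SD, n = 7 lineages), 4.12 ± 0.943 (n = 10), 3.40 ± 1.70 (n = 9), 4.37 ± 1.39 (n = 7) and 1.46 ± 1.23 (n = 2). Cells without Myc were absent from the first interval, and the spread between lineages was wider at 4 to 8 h than in the first interval.

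Mxd3 was above 0 TPM in 6 of the 15 CD8+ T-cells within 2 h of division, in 16 of 26 at 2 to 4 h, in 24 of 27 at 4 to 6 h, in 15 of 19 at 6 to 8 h and in 5 of 7 at 8 to 10 h. Its medians in these intervals were 0, 6.935, 56.27, 60.72 and 204.84 TPM, and its maxima 111.5, 256.12, 357.53, 414.21 and 665.17 TPM. The means over lineages were 1.54 ± 1.56, 2.54 ± 1.68, 3.88 ± 1.17, 3.49 ± 1.74 and 3.95 ± 0.0878. The share of cells with Mxd3 thus grew up to 4 to 6 h, and the medians and maxima were higher in each later interval.

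Over lineage means of CD8+ T-cells the slope was −0.293 ln units per hour for Myc, with an SE of 0.101 and a 95% interval of −0.500 to −0.0855 (31 lineages). Leaving out each lineage in turn gave −0.337 to −0.221. Of the 9997 genes tested, 12 had a lower slope. For Mxd3 the slope was 0.344 with an SE of 0.120 and an interval of 0.0992 to 0.589. It lay between 0.302 and 0.393 with a lineage left out, and 4 of 9997 genes had a higher one. These ranks, and that given for L1210 cells, place genes chosen on this course by slopes not scaled to their spread. They are no test of the slopes. The Mxd3 slope was 0.227 without the cells of the first interval. The Myc slope was −0.162 without those cells and −0.181 without the 7 cells at 8 to 10 h, but −0.444 without the 19 cells at 6 to 8 h. With the number of detected genes as a covariate the slopes were −0.238 for Myc and 0.351 for Mxd3. The difference of Mxd3 and Myc within a lineage had a slope of 0.636 per hour with an SE of 0.191.

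In L1210 cells the slope of Myc was −0.047 per hour with an SE of 0.045 and an interval of −0.140 to 0.047 (26 lineages), which includes 0. Its means over lineages were 4.91 ± 1.27, 5.81 ± 0.691, 5.64 ± 0.754, 5.28 ± 0.793, 4.07 ± 2.74 and 5.07 ± 0.372 in the 5 intervals of 2 h up to 10 h and the last, 10 to 13 h. The low value at 8 to 10 h came with a wide spread over 3 lineages. Mxd3 had a slope of 0.112 with an SE of 0.051 and an interval of 0.007 to 0.216, and 52 of 10536 genes had a higher one. Over lineages with 2 or more cells it was 0.066. The cells with Mxd3 were 6 of 15, 7 of 22, 7 of 16, 6 of 10, 2 of 8 and 5 of 10 in successive intervals, and no interval held a cell above 70.52 TPM.

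**Figure D2:**
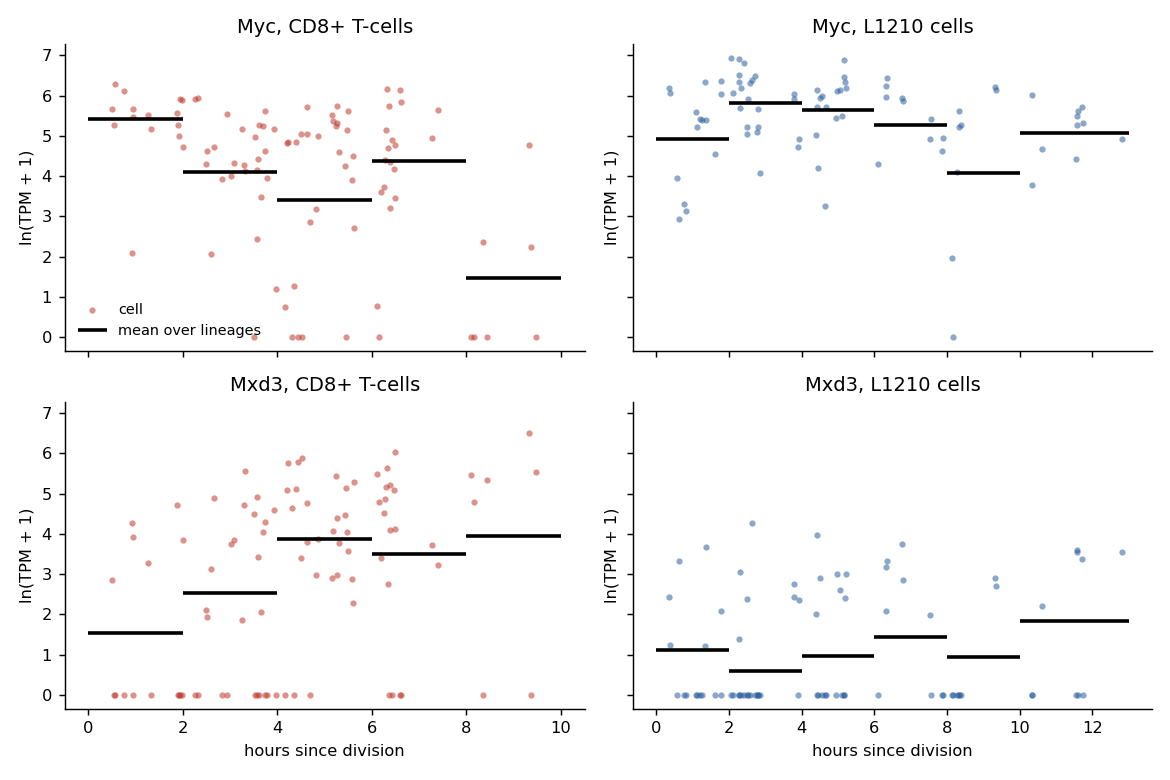
Myc (top) and Mxd3 (bottom) against time since division in CD8+ T-cells (left, 94 cells) and L1210 cells (right, 81 cells). The horizontal axes are hours since division and the vertical axes ln(TPM + 1); points are cells, and black lines are means over lineages within each interval. In CD8+ T-cells the Myc means are 5.42 at 0 to 2 h and 1.46 at 8 to 10 h and those of Mxd3 are 1.54 and 3.95, while in L1210 cells Myc stays between 4.07 and 5.81.

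The remaining members had slopes within 2 SE of 0 in both cell types. In CD8+ T-cells these were −0.013 for Max (SE 0.040), 0.060 for Mxd1 (SE 0.051), 0.055 for Mlx (SE 0.078), −0.041 for Mxi1 (SE 0.047), −0.030 for Mxd4 (SE 0.048), −0.020 for Mnt (SE 0.050) and −0.013 for Mycn (SE 0.016). In L1210 cells they were 0.033 for Max (SE 0.017), 0.046 for Mxd1 (SE 0.025), 0.043 for Mxi1 (SE 0.030), −0.038 for Mnt (SE 0.026), −0.015 for Mlx (SE 0.052) and 0.010 for Mxd4 (SE 0.014). The median slope of all genes was −0.035 in CD8+ T-cells against −0.008 in L1210 cells. Max, which the partners share, thus had a slope smaller than that of Myc or Mxd3 in CD8+ T-cells.

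Expressed as shares of the Max partners in CD8+ T-cells, Myc made up 88.4% and Mxd3 7.28% within 2 h of division. Mxd3 reached 24.5% at 2 to 4 h, 44.1% at 4 to 6 h, 38.7% at 6 to 8 h and 90.2% in the 7 cells at 8 to 10 h. These shares are of the TPM summed over cells, to which cells with high values contribute most. The median share of Mxd3 per cell was 0, 7.82, 26.7, 36.7 and 97.1% in the same intervals. Mxd3 exceeded Myc in 1 of 15, 6 of 26, 10 of 27, 8 of 19 and 5 of 7 cells of these intervals. In L1210 cells Myc made up between 88.9% and 96.1% in every interval, the lowest at 10 to 13 h, where Mxd3 made up 6.20% and Mxi1 3.24%.

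**Figure D3:**
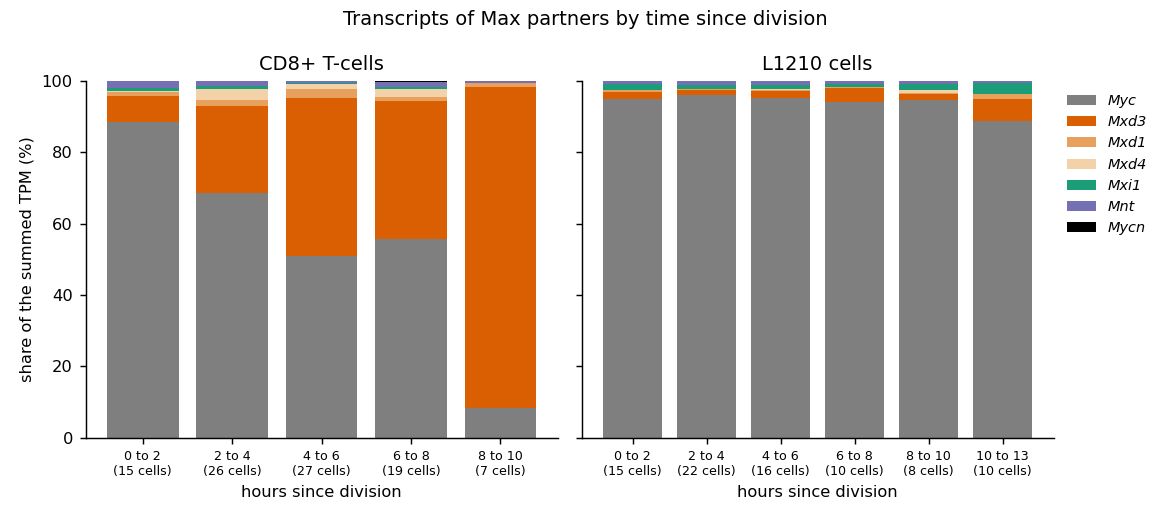
Share of each Max partner in their summed TPM by time since division. The horizontal axes give intervals in hours with the number of cells, the vertical axis the share in percent, and the stacked colours the genes. Mxd3 (dark orange) makes up 7.28% of the sum at 0 to 2 h and 90.2% at 8 to 10 h in CD8+ T-cells (left), and stays at or under 6.20% in L1210 cells (right).

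Within single cells Myc and Mxd3 were not exclusive. Both were above 0 TPM in 57 of 97 CD8+ T-cells, 30 had Myc alone, 10 had Mxd3 alone and 0 had neither. In L1210 cells 33 of 81 had both, 47 had Myc alone, 0 had Mxd3 alone and 1 had neither. Spearman's rho between them over cells was −0.343 in CD8+ T-cells (n = 97) and 0.225 in L1210 cells (n = 81). Cells of a lineage share their founder and their time, and all cells share the scaling of TPM and a detection depth that differs between libraries. Ranked among 9160 genes kept in both cell types by the lower of both correlations, Mxd3 was in place 9137 for Myc, near the bottom. That lower value is the −0.343 of CD8+ T-cells, so the place does not describe L1210 cells, where rho was above 0. The genes were chosen with Mxd3 set against Myc in these cells, so the place is no test. In CD8+ T-cells rho was negative in each of the 5 intervals, between −0.491 at 6 to 8 h and −0.060 at 8 to 10 h.

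Older and younger sister pairs of a lineage gave a further look at time, with the founder held fixed. In the 16 CD8+ lineages with both pairs, whose divisions lay 0.077 to 0.996 h apart (median 0.249 h), the older pair had more Mxd3 in 9 lineages and less in 6, and more Myc in 9 and less in 7. In 14 L1210 lineages, 0.0375 to 2.88 h apart, the older pair had more Mxd3 in 4 and less in 6, and more Myc in 7 and less in 7. For Mxd3 and Myc no direction stood out over these short gaps, where the mean differences (0.028 ± 2.04 for Mxd3 and −0.180 ± 1.45 for Myc in CD8+ T-cells, SD over lineages) were far smaller than their spread. Mlx, picked out after all members had been seen, was lower in the older pair in 12 of 16 CD8+ lineages and higher in 4 (mean −0.68 ± 1.29). In L1210 cells it was lower in 7 and higher in 7. Its slope on hours over CD8+ lineage means had the other sign, 0.055 (SE 0.078).

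The cell cycle around these slopes was read from lists of genes that are not members. They were tested with limma on lineage means, with Benjamini-Hochberg adjustment over all genes. In CD8+ T-cells 4 of 9997 genes rose with time (0.04%) and 5 fell (0.05%), 0.09% in all. Of 20 G2 and mitosis genes 1 rose and 0 fell, with 6 of 20 slopes below 0, where 68.3% of all genes were, and a median of 0.062 against −0.035 for all genes. The gene that rose was Cdk1, the kinase that drives entry into mitosis, with a slope of 0.263 per hour (SE 0.055, limma adjusted p = 0.0276, n = 31 lineages). Of 18 G1/S phase genes 1 fell and 0 rose, with 17 of 18 slopes below 0 and a median of −0.106. That gene was Ccne2, a cyclin of the G1/S transition, with a slope of −0.362 (SE 0.071, limma adjusted p = 0.0265). Both calls were lost under some alternatives while the slopes kept their sign. For Cdk1 the slope was 0.181 with a limma adjusted p of 0.278 without the cells of 0 to 2 h, and for Ccne2 it was −0.322 with an adjusted p of 0.196 without those of 8 to 10 h. Over all alternatives the adjusted p from limma ran from 0.00213 to 0.278 for Cdk1 and from 0.0129 to 0.196 for Ccne2.

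None of the other lists held a gene that passed the test in CD8+ T-cells, counting 14 network partners such as Sin3a and Mga, 8 genes that control the stability of Myc, 33 Myc-activated targets, 10 Myc-repressed targets and Txnip, the only target of the Mlx arm tested. At an unadjusted p under 0.05, 1 Myc-activated target rose and 4 fell, against 12.9% of all genes in either direction. Their median slope was −0.046, close to that of all genes. In L1210 cells limma called 0 of 10536 genes, with 588 (5.58%) at an unadjusted p under 0.05. The slopes of 30 of 34 Myc-activated targets and all 18 G1/S phase genes were below 0 there, where 57.9% of all genes were, with medians of −0.025 and −0.053 against −0.008 for all genes. Of the 20 G2 and mitosis genes 11 had a slope below 0 in L1210 cells, with a median of −0.012. In that list 0 genes had an unadjusted limma p under 0.05. The difference of slopes between cell types passed the test for 1 of 11373 genes (0.00879%), which was in none of the lists, with 1229 genes at an unadjusted p under 0.05.

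The genes whose pattern was most like that of Mxd3 or Myc were ranked by the lower of their correlations in the 2 cell types, so that a like value in both is set by the choice. For Mxd3 these were Incenp, Cdk1, Ccna2, Nusap1 and Top2a, and for Myc they were Nsun2, Cmah, Slc16a1, Hspa5 and Dhx15. Incenp, the scaffold of the Aurora B complex in mitosis, was closest to Mxd3 with a rho of 0.638 in 97 CD8+ T-cells against 0.492 in 81 L1210 cells. Cdk1, the mitotic kinase, followed with 0.447 and 0.492, Ccna2 (cyclin A2) with 0.448 and 0.438, Nusap1, a spindle protein, with 0.434 and 0.467, and Top2a, the topoisomerase that untangles sister chromatids, with 0.500 and 0.417. For Myc, Nsun2, an RNA methyltransferase, had a rho of 0.443 and 0.466, Cmah, which makes a form of sialic acid, 0.420 and 0.523, Slc16a1, a lactate transporter, 0.439 and 0.420, Hspa5, the chaperone of the endoplasmic reticulum, 0.418 and 0.516, and Dhx15, a splicing helicase, 0.418 and 0.454. Of these 10 genes 8 were named again without the L1210 cell that had no Myc, 6 among cells with 4000 or more detected genes, 4 over lineage means and 3 after the number of detected genes was taken out. Nusap1 for Mxd3 was among the 5 under each of these settings.

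Against the lists, Mxd3 correlated with the mean of the 20 G2 and mitosis genes at a rho of 0.490 in CD8+ T-cells against 0.473 in L1210 cells, and with 18 and 20 of the 20 genes one by one at a rho above 0. After the number of detected genes was taken out, the values were 0.498 and 0.263. Its rho with the mean of the 18 G1/S phase genes was −0.034 and 0.108. Myc correlated with the mean of 33 Myc-activated targets, mostly ribosome assembly, nucleotide and amino acid genes, at 0.372 and 0.470, with 26 and 32 of 33 above 0 one by one. After the number of detected genes was taken out, these were 0.191 and 0.473. Myc had a rho of −0.008 and 0.032 with the G2 and mitosis genes, and Mxd3 one of −0.130 and 0.313 with the Myc-activated targets. The rho of Myc with the G1/S phase genes was 0.229 and 0.389, or 0.114 and 0.380 after detected genes were taken out, and with the mean of 8 Myc-repressed targets it was 0.234 and 0.087, or −0.056 and −0.068 after.

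**Figure D4:**
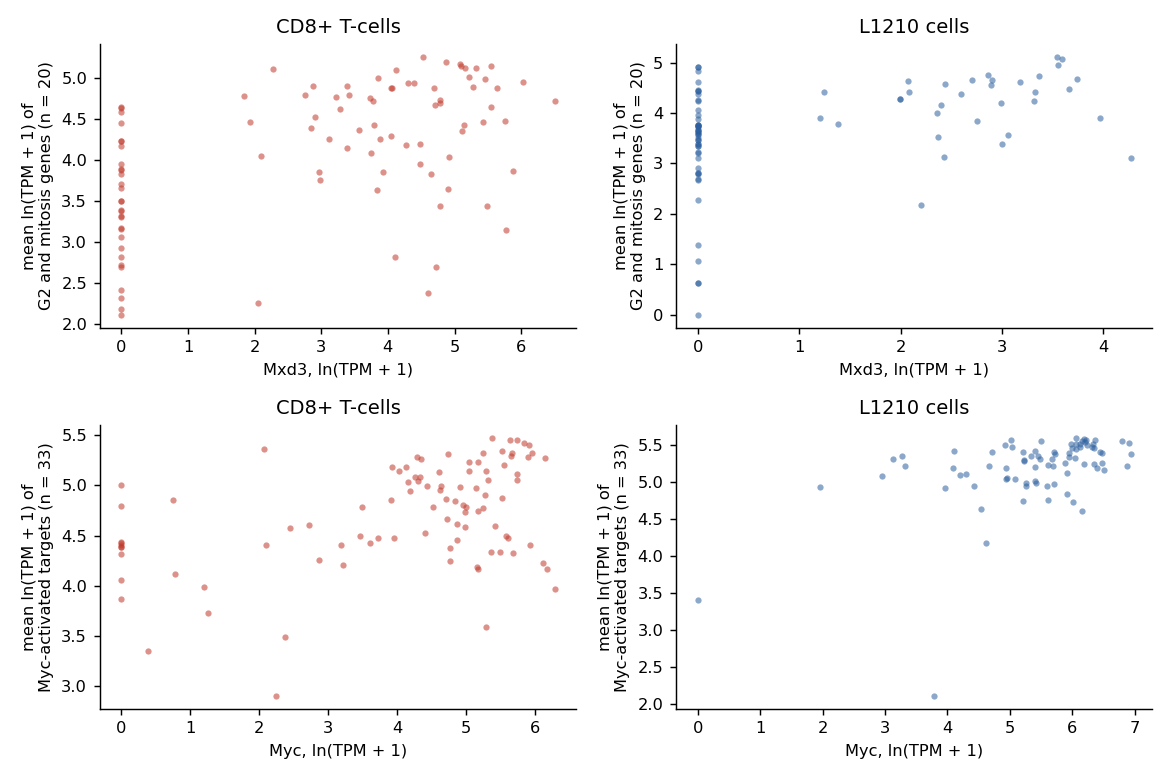
Mxd3 against the mean of 20 G2 and mitosis genes (top) and Myc against the mean of 33 Myc-activated targets (bottom), both as ln(TPM + 1), in CD8+ T-cells (left, 97 cells) and L1210 cells (right, 81 cells). Each point is a cell, and the vertical axes do not start at the same value. The lowest mean of the mitosis genes is 2.11 without Mxd3 and 2.25 with it in CD8+ T-cells, and 0 and 2.17 in L1210 cells. The Mxd3 panels have rho of 0.490 and 0.473, and the Myc panels have rho of 0.372 and 0.470.

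Among the other members, Mxd1 had a rho of 0.502 with the G2 and mitosis genes in L1210 cells, 0.183 after the number of detected genes was taken out, and 0.190 in CD8+ T-cells. Mlx had 0.290 in CD8+ T-cells against 0.405 in L1210 cells, 0.325 and 0.249 after detected genes were taken out. Between members the correlations were weak, at most 0.239 in size in CD8+ T-cells for any pair other than Myc and Mxd3, and up to 0.363, for Mxd3 and Mlx, in L1210 cells.

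The third question was whether cells of a lineage were more alike in these genes than cells of different lineages. Myc was closer among relatives in both cell types and Mxd3 in CD8+ T-cells, while Mxd1 and Mxi1 were close to or above the unrelated level in 1 cell type each. Likeness was measured as the mean size of the difference in ln(TPM + 1) between related cells, sisters and cousins, set against the difference of the same cells from those of all other lineages. It drew on 27 CD8+ lineages with 43 sister and 72 cousin pairs and on 24 L1210 lineages with 38 and 62.

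For Myc the related cells differed by 1.52 against 2.00 for unrelated cells in CD8+ T-cells, 23.8% less, with a lower value in 19 of 27 lineages (difference −0.47 ± 0.862, SD over lineages). In L1210 cells they differed by 0.807 against 1.17, 31% less, lower in 19 of 24 lineages (−0.36 ± 0.458). L1210 sisters alone differed by 48% less, lower in 21 of 24 lineages. For Mxd3 the CD8+ relatives differed by 1.69 against 2.47, 31.7% less, lower in 17 of 27 lineages (−0.78 ± 1.32), and 246 of 9997 genes (2.46%) were more alike. The share of genes more alike was 8.78% for Myc and 95.4% for Mxd1 in CD8+ T-cells, and 4.61% for Myc and 41.9% for Mxd3 in L1210 cells. These ranks place genes chosen on this likeness and are no test of it. In L1210 cells Mxd3 was 11.8% less, lower in 13 of 24 lineages, near the median of all genes (a difference of −0.18, −0.042 with 10 TPM added and −0.057 after detected genes were taken out), which was 9.49% less in L1210 cells and 8.38% less in CD8+ T-cells. Mlx was 23% less in L1210 cells, lower in 16 of 24 lineages, and 4.45% less in CD8+ T-cells. Its differences, −0.27 in L1210 cells and −0.077 in CD8+ T-cells, were −0.065 and −0.14 among cells with 4000 or more detected genes, which turns the order of the cell types, and −0.085 and −0.045 after detected genes were taken out.

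Max was 13.2% and 13.5% less in CD8+ T-cells and L1210 cells. Mnt was 5.45% and 11.1% less, Mxd4 11.3% and 8.87% less, and Mxi1 6.33% less in CD8+ T-cells and 1.87% more in L1210 cells. Mxd1 was 7.85% more in CD8+ T-cells and 8.32% less in L1210 cells. Mycn, in 5 CD8+ T-cells of different sister pairs, was 16.7% more. The values of the sparse members rest mostly on cells at 0 TPM.

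**Figure D5:**
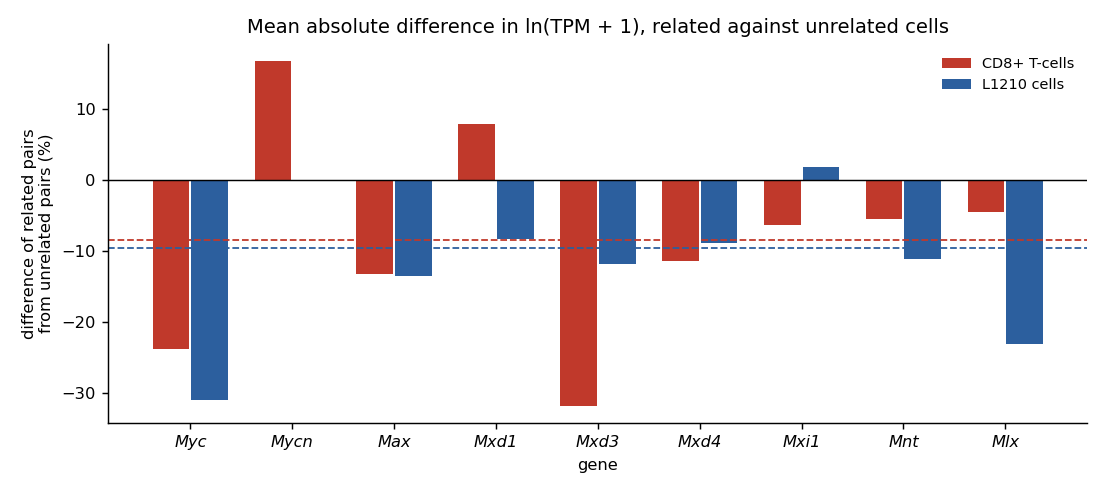
Difference in expression between related cells relative to unrelated cells for each network gene. The horizontal axis gives the gene and the vertical axis the relative difference in percent of the mean absolute difference, taken on ln(TPM + 1), for 27 CD8+ (red) and 24 L1210 (blue) lineages; dashed lines are the medians of all genes, 8.38% and 9.49% less, and the bars carry no error, since the SD over lineages is of the absolute difference. Myc lies below both lines in both cell types, at 23.8% and 31% less, and Mxd3 in CD8+ T-cells, at 31.7% less; Mycn has no bar in L1210 cells, where it is at 0 throughout.

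The share of variance that lay between lineages was 38.3% for Myc and 30.4% for Mxd3 in CD8+ T-cells, and 44.4% and 14.2% in L1210 cells, where Mlx had 31.9%. Detection was also counted in sister pairs. Of 43 CD8+ sister pairs both cells had Mxd3 in 24, 1 cell had it in 11 and neither in 8. In the 38 L1210 sister pairs these counts were 9, 12 and 17. How often unrelated pairs agree was not counted, so these counts are a description. Of the 16 CD8+ lineages with 4 cells, Mxd3 was above 0 in all 4 cells of 6 lineages and in none of 1.

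Single lineages make the range plain. The 4-cell CD8+ lineage with the lowest mean Myc, released 8.09 to 8.43 h after division, held 9.65, 0, 0 and 0 TPM of Myc and, in the same cells, 0, 204.84, 232.28 and 118.89 TPM of Mxd3. The 4-cell CD8+ lineage with the highest mean Myc, at 1.27 to 1.90 h, held 264.75, 195.14, 247.78 and 174.43 TPM of Myc. Its Mxd3 was 111.5, 0, 25.4 and 0 TPM. The former lineage lay late and the latter early in the recorded time of 0.5 to 9.475 h, with other lineages beyond each. Over CD8+ lineages of 2 or more cells, however, the highest mean Myc, 5.87 in ln(TPM + 1), lay late. That lineage, at 6.6 to 7.4 h, held 281.92, 461.74 and 342.97 TPM of Myc and 24.19, 0 and 0 TPM of Mxd3. The 4-cell CD8+ lineage with no Mxd3 at all, at 2.25 to 2.93 h, held 366.89, 384.14, 49.72 and 255.34 TPM of Myc. Some smaller lineages had no Mxd3 either. The 4-cell CD8+ lineage with the highest mean Mxd3, at 6.25 to 6.37 h, held 91.05, 173.31, 278.06 and 184.67 TPM of it. Its Myc was 40.42, 172.55, 479.82 and 23.89 TPM in the same cells, so that high levels of both occurred together there. Over CD8+ lineages of 2 or more cells the highest mean Mxd3, 5.43, lay in another lineage, at 6.12 to 6.48 h. It held 240.81, 118.47 and 414.21 TPM of Mxd3 but only 1.16, 0 and 30.91 TPM of Myc. In L1210 cells the lineage with the lowest Myc, at 7.85 to 8.16 h, held 6.15, 0, 100.19 and 141.64 TPM, and no Mxd3. Its cell at 0 TPM of Myc had only 1610 detected genes and that at 100.19 TPM 2747. With time since division taken out, the differences of relatives from unrelated cells in CD8+ T-cells were −0.37 for Myc and −0.65 for Mxd3, against −0.47 and −0.78 before.

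In the same test over all genes, limma called 54 of 9997 genes as more alike among CD8+ relatives (0.54%) and 2 of 10536 among L1210 relatives (0.019%). Of the listed genes, Srm, spermidine synthase and a Myc-activated target, was among the CD8+ calls with a difference of −0.58 (SE 0.141, limma adjusted p = 0.0490, n = 27 lineages), and Cdkn1a, the p21 inhibitor of cyclin-dependent kinases that Myc represses, with −1.29 (SE 0.212, limma adjusted p = 0.00208). The Srm call was lost, at a limma adjusted p of 0.0789, when Rn45s was removed, with the difference at −0.56. All 33 Myc-activated targets tested in CD8+ T-cells had a difference below 0, where 79.8% of all genes did, and 18 of the 33 had an unadjusted p under 0.05, where 14.3% of all genes did. In L1210 cells 33 of 34 were below 0, where 81.4% of all genes were, and none of the 34 passed the adjusted test, with 4 at an unadjusted p under 0.05, where 11.9% of all genes were. The G2 and mitosis genes had a median difference of −0.52 in L1210 cells and −0.23 in CD8+ T-cells, against −0.092 and −0.096 for all genes, and none of the 20 passed the adjusted test in either, with 17 and 11 at an unadjusted p under 0.05, where 11.9% and 14.3% of all genes were.

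By level, the lists that surround the network were read against all genes, of which 20.3% were higher in L1210 cells by more than 1 and 4.95% in CD8+ T-cells. Of 34 Myc-activated targets 7 were higher in L1210 cells by more than 1 and 1 in CD8+ T-cells, shares near those of all genes, with a median difference of −0.46, near the −0.41 of all genes. Of 18 G1/S phase genes 2 were higher in CD8+ T-cells, 0 were higher in L1210 cells, with a median of 0.54, and of 20 G2 and mitosis genes likewise 2 and 0, with a median of 0.34. Of 11 Myc-repressed targets 2 were higher in each, with a median of 0.43. Txnip, the glucose-responsive target of Mlx and its Mondo partners, was higher in L1210 cells, with medians of 47.52 and 11.26 TPM and a difference of −1.49.

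The library protocol does not keep the strand, and 4 members share exon bases with a gene on the opposite strand in the GENCODE annotation, so reads from those bases cannot be assigned to either. For Mxd3 these are 4.43% of its 2369 exon bases, shared with Prelid1, whose median was 936.79 TPM in CD8+ T-cells against 279.68 TPM in L1210 cells. Prelid1 was above 0 in 29 CD8+ T-cells and 45 L1210 cells that had Mxd3 at 0, and its rho with Mxd3 was 0.328 and 0.155. For Mlx they are 385 of 1999 bases (19.3%), shared with Psmc3ip, which had medians of 19.41 and 28.39 TPM and a rho with Mlx of 0.137 and 0.201. Mxi1 and Mxd4 share 194 of 6823 and 514 of 8483 exon bases with the predicted genes Gm10197 and Gm42846. The part of these overlaps in the values of the members was not tested.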

How the data were processed

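The authors sequenced single-cell Smart-Seq2 libraries and deposited RSEM estimates as TPM, not log-transformed, for UCSC-annotated mouse genes (mm10). The submitters' processing notes name RSEM 1.2.3, TopHat2, bcl2fastq and GenomeStudio. TPM keep no depth.

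Cells labelled as doublets and those with fewer than 1000 genes above 0 TPM were left out. Values were used as ln(TPM + 1). The filter on low values asked for a level above 1 in over 10% of cells of that type. Sister and cousin labels defined lineages, with 4 unreciprocated cousin labels resolved by the others. Slopes and likeness were fitted on lineage means with limma 3.58.1 (trended empirical Bayes, 2-sided, adjusted p under 0.05) and tested on simulated data. Members and lists were chosen with earlier results of these data known. Named were all 9 members, up to 3 called listed genes per list, direction and test, the 5 genes most like Mxd3 and Myc, and 4 markers, with a few others for context. A further B-lineage marker is not reported here. Alternatives covered the pseudocount, detected genes, Rn45s, the gene filter, 1 L1210 cell without Myc, covariates, sister pairs and time intervals. Coordinates come from GENCODE (GRCm38). R 4.3.3 and Python 3.11.15 were used.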

Additional observations from a re-analysis of the deposited data

How the results depend on the processing

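No paired analysis was possible because the numbers in the labels count cells within a cell type and pair no sample of one type with one of the other, and no test between groups was made on paired samples. Of 367 values of members under an alternative, 342 moved by less than the SD over lineages (for slopes, the SE from limma) and 25 moved by more. That SE differs from the least squares SE printed with the slopes of members. None that lay more than 2 SE from limma, or for levels more than 1, from 0 changed sign. For likeness the SD over lineages is mostly larger than the value, so this bar is wide. By a bar of 1.5 times in either direction or a change of sign, 136 of the 367 values moved, of which 20 of 54 were levels, 48 of 127 likeness and 68 of 186 slopes, and 15 changed sign. The slope of Myc in CD8+ T-cells, −0.293, was −0.200 with a pseudocount of 10 TPM, −0.162 without cells of 0 to 2 h, −0.444 without 6 to 8 h and −0.181 without 8 to 10 h, and that of Mxd3, 0.344, was 0.471 with 0.1 TPM, 0.212 with 10 TPM and 0.227 without 0 to 2 h. The intervals left out were chosen after seeing the data. In L1210 cells the slope of Myc was −0.090 without 0 to 2 h, and that of Mxd3, 0.112, was 0.179 with 0.1 TPM, 0.046 with 10 TPM and 0.066 over lineages of 2 or more cells. A larger pseudocount shrinks values of low genes by construction, and the cause of the other moves was not tested.

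Counts of calls were less stable. For time in CD8+ T-cells, 9 genes in the reported fit, they were 5 with 0.1 TPM, 25 (18 higher and 7 lower) with 4000 or more detected genes, 3 with no gene filter, 17 with detected genes as a covariate, 17 with sister pairs as units and the lineage as a block, 3 without 0 to 2 h and 1 without 8 to 10 h. In L1210 cells 1 gene was called with the covariate. The difference of slopes gave 2 with 10 TPM, 0 without Rn45s, 0 with no gene filter and 2 with the covariate, with 1421 and 1480 genes at an unadjusted p under 0.05 where it gave 0. Likeness in CD8+ T-cells, 54 genes, gave 16, 138 and 199 with 0.1 TPM, 10 TPM and no gene filter. In L1210 cells, 2 genes, it gave 4 with 0.1 TPM, 57 with 4000 or more detected genes, 263 with no filter, 18 with sisters only and 0 with detected genes taken out. Differences in level over 1 numbered 5326 with 0.1 TPM and 653 with 10 TPM, against 2869, and Myc and Mxd3 then lay at −1.44 and 2.00, and at −0.90 and 0.92. The genes most like Mxd3 and Myc shared 6, 3 and 4 of 10 with 4000 or more detected genes, with detected genes taken out and over lineage means.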

Other observations

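The 6 libraries labelled as doublets, which entered no comparison, held 4 of CD8+ T-cells taken 0.20 to 0.55 h after division. Their Mxd3 was 0 TPM at 0.55 h, 167.06 TPM at 0.3 h, 86.34 TPM at 0.2 h and 63.21 TPM at 0.2056 h, where the 15 single CD8+ T-cells within 2 h of division had a median of 0 TPM. Their Myc was 252.69, 108.94, 49.78 and 20.78 TPM in the same order, against a median of 247.78 TPM in those single cells. Mlx was 230.02, 144.96, 153.28 and 88.33 TPM, and Max 51.45, 54.58, 82.94 and 83.63 TPM. The 3 single CD8+ T-cells nearest in age to the doublet at 0.55 h, released at 0.5, 0.5528 and 0.5667 h, had 16.32, 0 and 0 TPM of Mxd3 and 288.76, 196.03 and 533.03 TPM of Myc. No single CD8+ T-cell was as young as the other 3 doublets. The 2 L1210 doublets had 3.65 and 133.04 TPM of Myc and no Mxd3.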
